A study of Mus musculus with 48 samples.

Results

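The polysomal response to N6L was described from the 24 polysome samples among the 48 samples of the series. Each polysome library was deposited as 4 technical replicates, which were summed, so that 6 of the 12 libraries of the series entered: 3 from non-treated cells (numbered 1, 2 and 4 in the labels) and 3 from N6L-treated cells (numbered 1, 2 and 3). All libraries came from mPDAC cells, a mouse pancreatic ductal adenocarcinoma line labelled with the background FVB/N x C57BL6 and an age of 8 weeks. The treated cells received 50 µM N6L, a pseudopeptide antagonist of nucleolin, for 48 h, and the controls received none. The line is a single model, and the labels do not say whether the 3 libraries of a group came from independently grown cultures, so the p-values measure the spread between these libraries, which may be technical.

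An mRNA that is being translated carries several ribosomes at once, and such polysomes sediment faster in a sucrose gradient than free mRNA or single ribosomes. The polysomal library therefore samples the mRNAs engaged with ribosomes, and its counts depend both on how much of an mRNA the cytoplasm holds and on how much of it is loaded. Nucleolin is an abundant nucleolar RNA-binding protein that acts in ribosomal RNA synthesis and also binds mRNAs. In all that follows a level is given in CPM, the counts of a gene per 1000000 counts of the library after TMM scaling, which is relative to the other mRNAs of the library. The total amount of polysomal RNA per cell was not measured by these counts. In bulk libraries a change in some of the cells and a smaller change in every cell cannot be told apart.

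Library totals lay between 19519911 and 37612780 counts. Technical replicates of the same library were close to Poisson sampling, with a chi-square of 1.02 to 1.04 for each degree of freedom. Ductal keratins were abundant in every library, with Krt8 between 2479 and 3240 CPM and Krt19 between 1473 and 2250 CPM, while Epcam, Cldn4 and Cldn7 stayed below 0.3 CPM. Of the markers of other cell types, 4 of 12 mesenchymal, 2 of 10 acinar, 0 of 8 endocrine, 2 of 8 endothelial and 3 of 10 immune genes passed the filter on low counts, and none of them differed between treatments at an FDR under 0.05. Ptprc, Col3a1, Pnlip and Ins1 were at or near 0 in all 6 libraries. Libraries did not group by treatment alone. The SD of the log2 differences between 2 libraries was 0.37 to 0.51 among the non-treated ones, 0.39 to 0.73 among the N6L ones and 0.46 to 0.82 between treatments, with N6L library 3 the farthest from the others.

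Of the genes listed, 13351 had enough counts for the test, and 328 differed between N6L and non-treated polysomes at an FDR under 0.05. Of these, 258 genes were higher (1.93% of those tested) and 70 were lower (0.524%). The median log2 fold change was 1.47 among the genes called higher and -1.16 among those called lower, against 0.01 for all genes tested. For 1845 genes (13.8%) the 3 N6L libraries all lay above the 3 non-treated ones, and for 1544 (11.6%) all below. These shares are the background against which each list of genes is read. The number of calls depended on single libraries. It was 23, 30 and 63 without non-treated library 1, 2 or 4, and 843, 62 and 1292 without N6L library 1, 2 or 3. All 328 genes kept their direction each time a library was left out. This was nearly fixed beforehand, since the groups lay apart for all 258 genes called higher and 69 of the 70 called lower. Of the 328 genes, 17, all higher, kept their call each time. The balance of rises and falls depended on the model. With libraries scaled by their total alone, 254 genes were higher and 31 lower. With offsets for transcript length and GC content 750 were higher and 742 lower, and with the offsets and the culture number as a block 1159 were higher and 1492 lower.

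The 12 largest rises, taken where the mean reached 10 CPM, were led by genes of the immediate-early response. Arc, an activity-regulated cytoskeletal gene (chromosome 15 from 74669083 to 74672570, GRCm38), was counted at 4.47, 8.86 and 5.59 CPM in the non-treated libraries 1, 2 and 4 and at 51.8, 39.5 and 48.5 CPM in the N6L libraries 1, 2 and 3. Its mean went from 6.31 ± 2.28 to 46.6 ± 6.37 CPM (SD, n = 3 each), which is 2.88 on the log2 scale (standard error 0.28, FDR 0.00285 by the quasi-likelihood test of edgeR). Every N6L library held several times the level of every control library, and Arc was called under all 16 alternative settings. Egr2, a zinc-finger transcription factor of the early growth response family (chromosome 10 from 67535475 to 67542188), rose from 9.31, 13.8 and 3.46 CPM to 75.3, 56.8 and 48.8 CPM (log2 fold change 2.77, FDR 0.00804). Nr4a1, an orphan nuclear receptor induced by many stimuli, rose from 59.2, 76.2 and 46.0 CPM to 216, 400.1 and 434 CPM (2.53, FDR 0.00384). Btg2, an antiproliferative cofactor of mRNA deadenylation, rose from 55.5, 95.2 and 38.3 CPM to 323, 349 and 374 CPM (2.47, FDR 0.00444). That N6L and control libraries did not overlap for these genes follows from the rule by which they were taken.

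**Figure D1:**
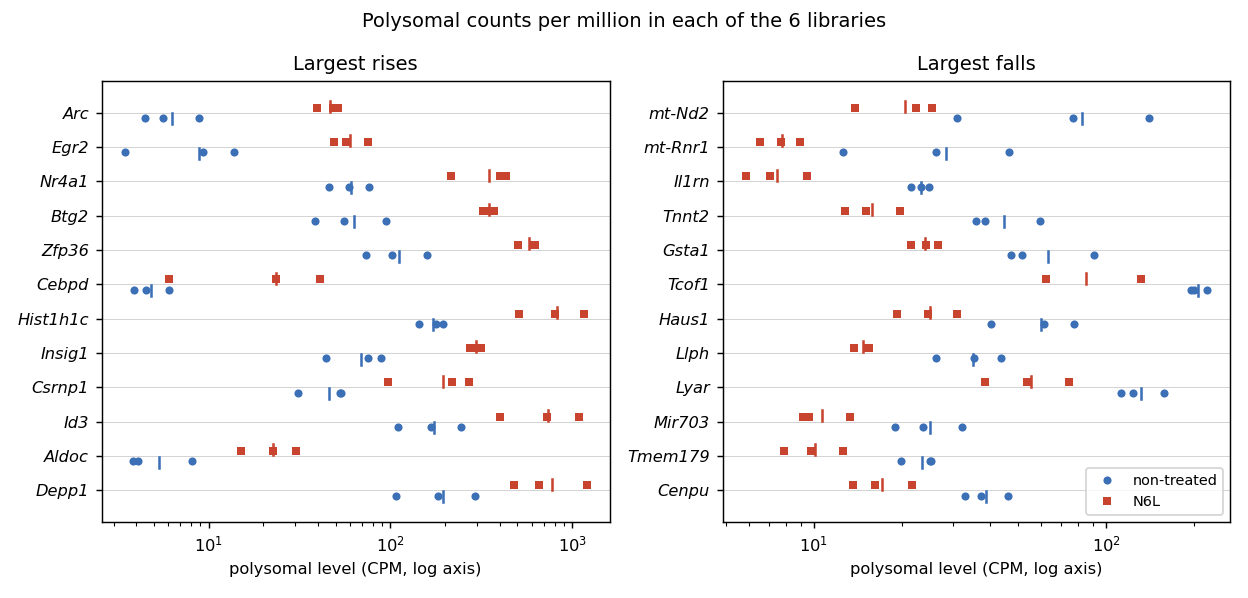
Polysomal level in CPM (log axis) of the 12 genes with the largest rise and the 12 with the largest fall. Circles are the 3 non-treated libraries, squares the 3 N6L libraries and vertical bars the group means. Arc lies at 4.47 to 8.86 CPM without and at 39.5 to 51.8 CPM with N6L, and the Cebpd value of N6L library 1 touches the highest non-treated one.

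Zfp36, whose product binds AU-rich elements and promotes the decay of short-lived mRNAs, rose from 103, 159 and 73.9 CPM to 501, 617 and 625 CPM (log2 fold change 2.38, FDR 0.00384). Its relative Zfp36l1 rose from 57.1 ± 17.4 to 145 ± 30.3 CPM (1.34, FDR 0.0239). Hist1h1c, a linker histone gene, rose from 178, 194 and 144 CPM to 510.3, 805 and 1159 CPM (2.26, FDR 0.00466), with a spread among the N6L libraries that exceeded 2-fold. Csrnp1, a transcriptional regulator, rose from 45.8 ± 12.7 to 196 ± 89.3 CPM. Id3, an inhibitor of basic helix-loop-helix factors, rose from 175 ± 67.8 to 739 ± 343 CPM. Aldoc, a glycolytic aldolase, rose from 5.36 ± 2.38 to 22.7 ± 7.53 CPM. The remaining members of the group were Cebpd and Depp1. Cebpd, a C/EBP transcription factor, was at 6.03 CPM in N6L library 1, level with the highest control value, and at 23.4 and 41.1 CPM in N6L libraries 2 and 3 (2.28, FDR 0.04). Depp1, a gene regulated by FoxO factors, rose from 108, 294 and 183 CPM to 1200.1, 478 and 661 CPM (2.00, FDR 0.0235). The levels of Cebpd and Depp1 thus differed widely within the N6L group, and leaving out a library raised their FDR to as much as 0.163 and 0.107.

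Immediate-early genes are transcribed within minutes of growth factor or stress signals from factors already present in the cell, and their mRNAs are short-lived. Of 26 such transcription factor and regulator genes, all of which passed the filter, 16 were higher in N6L polysomes, 0 were lower and 10 did not pass the test, against 1.93% of all genes called higher. The median log2 fold change of the list was 1.32. In 23 of the 26 every N6L library lay above every control library, against 13.8% of all genes. The list took 0.601%, 0.723% and 0.473% of the polysomal counts in the non-treated libraries and 1.21%, 1.44% and 1.45% in the N6L libraries (exact two-sided permutation test, p = 0.1, the smallest that 3 against 3 libraries allow). Exact 95% intervals of these shares cover counting error only and reached at most 0.0148 percentage points to either side in any list. The number of members called was 6, 7 and 9 without non-treated library 1, 2 or 4 and 20, 11 and 21 without N6L library 1, 2 or 3, while the median stayed between 1.22 and 1.5.

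Among the early growth response genes, Egr3 showed the largest change of the list, from 0.925, 2.45 and 0.721 CPM to 19.1, 20.5 and 14.8 CPM (log2 fold change 3.71, standard error 0.40, FDR 0.00384). Egr1, the most abundantly counted of them, rose from 951, 1057 and 458 CPM to 2452, 2667 and 2138 CPM (1.56, FDR 0.0212). Of the NR4A receptors, Nr4a3 rose from 0.103, 0.126 and 0.0865 CPM to 0.761, 1.39 and 0.800 CPM, a low level throughout (3.18, FDR 0.00818), and Nr4a2 rose from 3.52 ± 0.803 to 9.34 ± 4.05 CPM (1.41, FDR 0.0495). Thus all 3 NR4A genes passed the test. The AP-1 subunits did not move alike. Jun rose from 144, 173 and 100.3 CPM to 425, 457 and 473 CPM (1.70, FDR 0.00548) and was called under all 16 alternatives. Fos rose from 221 ± 55.0 to 584 ± 59.3 CPM, and Junb from 739.8 ± 128 to 1718 ± 546 CPM. Fosl1, by contrast, was at 304 ± 19.0 CPM without and 287 ± 34.4 CPM with N6L (-0.08, FDR 0.848). Jund reached 455, 807 and 1285 CPM in the N6L libraries against 458, 474 and 592 CPM in the controls, with overlap between the groups (0.74, FDR 0.215). Myc was at 721 ± 174 and 814 ± 107 CPM (0.17, FDR 0.71).

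Several dual-specificity phosphatases and Sprouty proteins restrain the ERK pathway and are themselves induced by it. Of 16 tested genes listed with these families, 5 were higher and 0 lower, against 1.93% and 0.524% of all genes. No Sprouty gene was among the 5, and whether ERK induced them was not tested. The median log2 fold change was 0.51. Dusp1, which dephosphorylates nuclear MAP kinases, rose from 102, 119 and 58.5 CPM to 277, 392 and 450.2 CPM (2.00, FDR 0.00743) and kept its call under all 16 alternatives. Dusp8, Dusp4 and Dusp5 rose by log2 fold changes of 1.21, 1.18 and 1.04. Errfi1, a feedback inhibitor of the EGF receptor, rose from 248 ± 58.0 to 487 ± 54.4 CPM (0.98, FDR 0.0404). The ERK-specific phosphatase Dusp6 was at 215 ± 55.9 and 287 ± 35.0 CPM (0.42, FDR 0.341). The group took 0.135% of the counts in non-treated and 0.255% in N6L libraries on average (exact permutation p = 0.1). The number called was between 1 and 6 when a library was left out.

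Transcription of immediate-early genes is driven in part by serum response factor at CArG boxes and by CREB at cyclic AMP response elements, and RefSeq promoter windows (250 bases before to 50 after the start, GRCm38.p6) were found for 19 of the 26 genes. The CArG box, searched by its consensus on both strands, was found in 2 of the 19 genes, Egr2 and Srf, and in 488 of all 27025 genes. It lay in 5 of the 25 windows of the 19 genes, some of which overlap, and in 1.63% of all 32851 windows. The full cyclic AMP response element TGACGTCA, a palindrome, was found in 2 of the 19 genes, Btg2 and Maff, and in 549 of all 27025 genes. It lay in 2 of the 25 windows and in 1.79% of all windows. The stretches that hold them follow, with the matching bases in capitals, since Egr2 and Btg2 are among the largest rises. Srf (log2 fold change 0.83, FDR 0.0714) and Maff (0.95, FDR 0.0564) did not pass the test.
Egr2 at chr10:67537484-67537513, plus strand: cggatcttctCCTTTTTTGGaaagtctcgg
Egr2 at chr10:67537787-67537816, plus strand: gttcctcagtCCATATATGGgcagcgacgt
Srf at chr17:46556205-46556234, minus strand: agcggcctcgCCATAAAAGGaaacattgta
Srf at chr17:46556225-46556254, minus strand: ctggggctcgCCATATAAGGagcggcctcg
Btg2 at chr1:134079303-134079332, minus strand: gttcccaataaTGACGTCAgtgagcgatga
Maff at chr15:79347480-79347509, plus strand: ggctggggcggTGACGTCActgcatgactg

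The other large group was that of sterol and fatty acid synthesis. These enzymes are transcribed under SREBP transcription factors, which are held in the endoplasmic reticulum by INSIG proteins while sterols are plentiful and are released when sterols run low. Of the 36 genes tested (1 of 37 was below the filter), 21 were higher, 0 were lower and 15 did not pass, against 1.93% of all genes higher. The median log2 fold change was 1.09, and in 29 of the 36 the N6L libraries all lay above the controls, against 13.8% of all genes. The list took 0.266%, 0.321% and 0.187% of the counts in the non-treated libraries and 0.561%, 0.549% and 0.452% in the N6L libraries (exact permutation p = 0.1). Here too the count of calls rested on single libraries. It was 1, 3 and 2 without non-treated library 1, 2 or 4, and 22, 3 and 25 without N6L library 1, 2 or 3, although the median of the list stayed between 0.93 and 1.21.

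Insig1, itself a target of SREBP (chromosome 5 from 28071363 to 28078662), led the list. It was at 75.6, 88.4 and 44.1 CPM in the controls and at 302, 316 and 274 CPM in the N6L libraries (log2 fold change 2.10, standard error 0.26, FDR 0.00444) and was called under all 16 alternatives. In the mevalonate branch, Hmgcs1 rose from 117, 135 and 69.3 CPM to 384, 358 and 189.5 CPM (1.54, FDR 0.024). N6L library 3 was the lowest of the treated libraries and still lay above every control. Idi1, the isomerase that makes the prenyl donor, rose from 2.29 ± 1.01 to 8.64 ± 3.32 CPM (1.92, FDR 0.0239). Later in the pathway, the squalene epoxidase gene Sqle rose from 76.5 ± 18.0 to 162 ± 21.3 CPM. Mvk, the mevalonate kinase gene, was at 46.4, 59.2 and 63.3 CPM against 63.1, 71.3 and 136 CPM, with overlap (0.68, FDR 0.212).

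The fatty acid branch split. Acss2, which makes acetyl-CoA from acetate, rose from 6.38, 8.04 and 5.56 CPM to 19.2, 23.8 and 21.1 CPM (log2 fold change 1.68, FDR 0.00743). The desaturase gene Fads2 rose from 15.3 ± 5.63 to 46.3 ± 5.33 CPM (1.59, FDR 0.015), and Scd1 from 117 ± 42.9 to 275 ± 48.2 CPM (1.23, FDR 0.0404). Some other genes of fatty acid synthesis did not pass. Fasn was at 221 ± 31.7 and 235 ± 48.9 CPM (0.09, FDR 0.858), Acly at 123 ± 29.7 and 135 ± 44.7 CPM (0.13, FDR 0.823) and Acaca at 17.7 ± 1.87 and 11.985 ± 4.42 CPM (-0.56, FDR 0.286). The SREBP genes themselves did not pass either, with log2 fold changes of 0.50 for Srebf2 (FDR 0.239) and 0.44 for Srebf1 (FDR 0.26). The sterol regulatory element TCACNCCAC, searched on both strands, was found in 1 of the 32 promoter windows that RefSeq gave for 26 of the members and in 1.24% of all windows. That window belongs to Hmgcs1, with the match in capitals.
Hmgcs1 at chr13:119690204-119690233, plus strand: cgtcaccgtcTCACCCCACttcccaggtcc

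**Figure D2:**
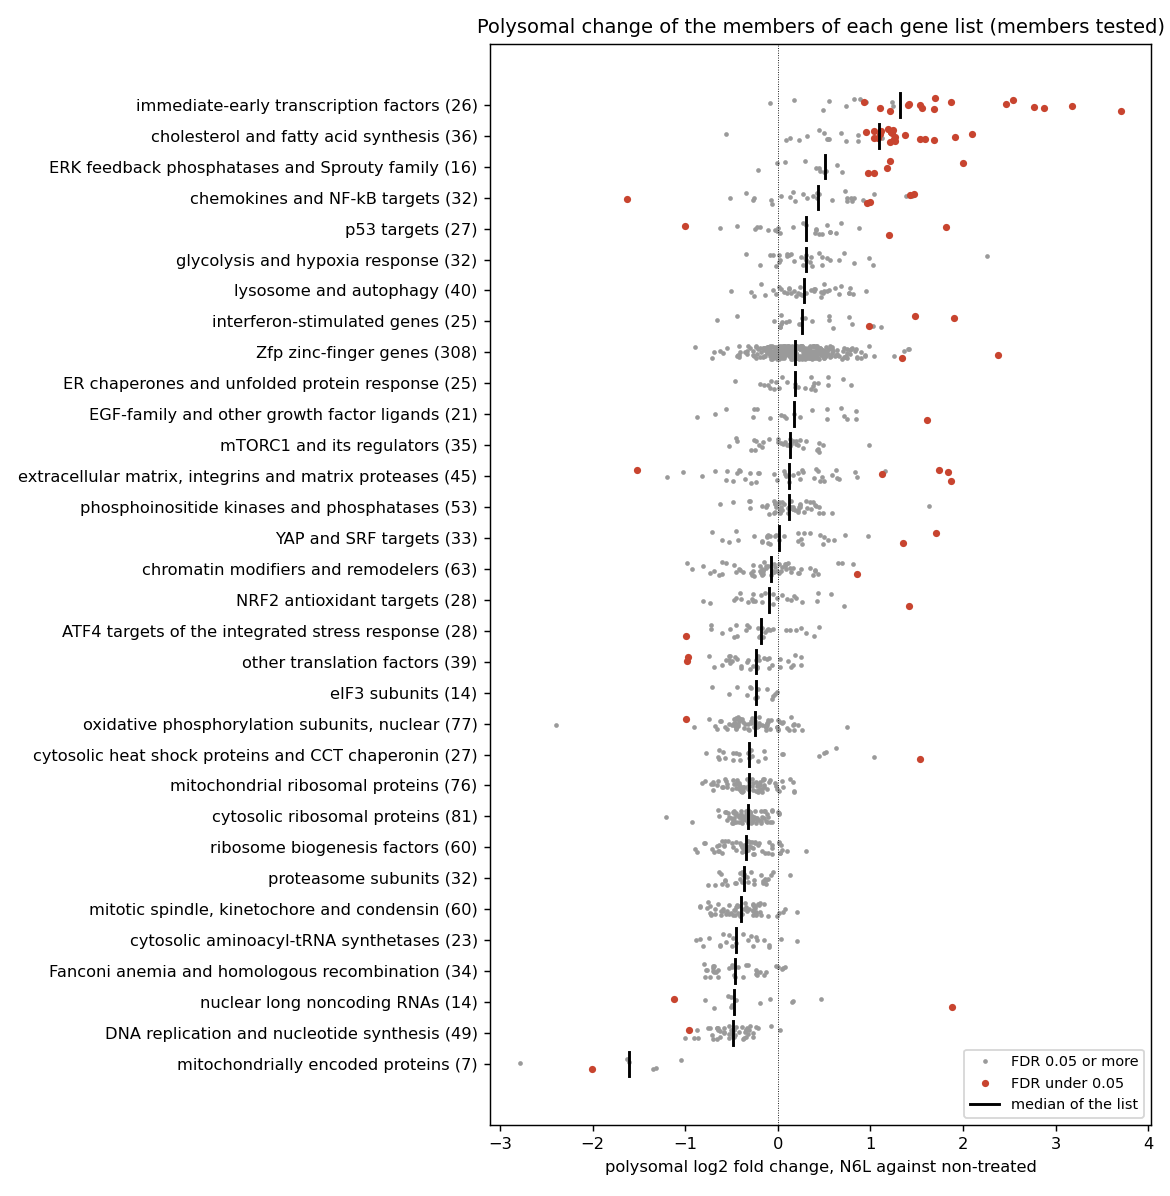
Polysomal log2 fold change (N6L against non-treated) of each tested member of the 32 functional gene lists, ordered by list median (black bars), with the number of members tested in parentheses. Red points have an FDR under 0.05. The immediate-early list (median 1.32, 16 called) and the cholesterol and fatty acid list (median 1.09, 21 called) stand at the top, and the mitochondrially encoded proteins (median -1.61) at the bottom.

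Signalling and secreted factors gave fewer calls, to be read against 1.93% of all genes called higher and 0.524% called lower. Of 32 tested chemokine and NF-kB target genes, 4 were higher and 1 was lower (median 0.43). Cxcl1, a neutrophil chemokine, rose from 219, 206 and 86.5 CPM to 447, 503 and 464 CPM (1.47, FDR 0.0276). The NF-kB feedback inhibitors Tnfaip3 (1.43, FDR 0.044) and Nfkbia (1.00, FDR 0.0336) and the chemokine Cxcl16 (0.96, FDR 0.04) also rose. Il1rn, the interleukin-1 receptor antagonist, fell from 24.7, 21.5 and 23.3 CPM to 9.47, 7.07 and 5.84 CPM (-1.63, FDR 0.00827). Of 21 growth factor and cytokine ligands, 1 rose, the gene of the cytokine Lif, from 10.3, 10.6 and 7.90 CPM to 15.6, 34.1 and 38.2 CPM (1.61, FDR 0.0239), and 0 fell. Of 25 interferon-stimulated genes, 3 rose and 0 fell, and all 3 were genes of interferon regulatory factors. Irf1 went from 63.9 ± 9.11 to 179 ± 20.8 CPM (1.48, FDR 0.0066), Irf9 from 14.7 ± 2.08 to 29.0 ± 4.00 CPM and Irf7 from 0.625 ± 0.141 to 2.41 ± 0.687 CPM.

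Of 33 targets of YAP and SRF, 2 rose (6.06%, against 1.93% of all genes) and 0 fell, with a list median of 0.01. Ccn1, a secreted matricellular protein gene, rose from 253, 299.5 and 238 CPM to 692, 851 and 1037 CPM (1.71, FDR 0.00466) and was called under all 16 alternatives. Ccn2 rose from 63.3 ± 6.66 to 161 ± 45.3 CPM (1.35, FDR 0.0184). Of 45 genes of the extracellular matrix, integrins and matrix proteases, 4 rose (8.89%) and 1 fell (2.22%, against 0.524% of all genes). The genes that rose included those of the proteases Adamts1 (1.87, FDR 0.0235) and Mmp13 (1.84, FDR 0.0427) and of thrombospondin, Thbs1 (1.74, FDR 0.04), all below 20 CPM in every library. Col7a1, the anchoring-fibril collagen, fell from 3.08, 3.05 and 3.57 CPM to 1.04, 1.12 and 1.24 CPM (-1.52, FDR 0.0204). Of 9 tested ductal markers, Sox9 alone passed, rising from 24.0 ± 6.58 to 51.1 ± 2.73 CPM (1.09, FDR 0.0333).

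Over all genes, 1.93% were called higher and 0.524% lower, the shares to set beside the lists that follow. Of 27 p53 targets, 2 rose and 1 fell, with the paralogs of the GADD45 stress genes on opposite sides. Gadd45b rose from 32.9, 37.5 and 55.7 CPM to 98.5, 149 and 196 CPM (1.81, FDR 0.00999), and Gadd45a fell from 328, 341 and 247 CPM to 160.4, 145 and 149.8 CPM (-1.01, FDR 0.0244). In both cases the groups did not overlap. Tnfrsf10b, a TRAIL death receptor gene, rose from 16.4 ± 2.42 to 37.5 ± 3.83 CPM (1.199, FDR 0.0204). Of 28 ATF4 targets of the integrated stress response, 0 rose and 1 fell, the mitochondrial folate enzyme gene Mthfd2, from 540.3, 528 and 469 CPM to 289.8, 243 and 243 CPM (-0.99, FDR 0.0235). Of 28 NRF2 antioxidant targets, 1 rose and 0 fell. It was Osgin1, from 287 ± 64.9 to 769 ± 268 CPM (1.42, FDR 0.0239). Of 27 cytosolic heat shock and chaperonin genes, 1 rose and 0 fell, the inducible Hspa1a, which stayed below 6 CPM (1.53, FDR 0.0485). Of 25 genes of the endoplasmic reticulum stress response, 0 passed in either direction (median 0.19), with Herpud1 at 0.70 (FDR 0.18) and Xbp1 at 0.55 (FDR 0.234).

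Since nucleolin acts in ribosome production, the machinery of translation is a question that N6L treatment poses. Of 81 tested cytosolic ribosomal protein genes, 0 were called in either direction, and 78 of the 81 had a log2 fold change below 0, with a median of -0.33. The median was -0.20 without non-treated library 4 and -0.52 without N6L library 3. The list took 12.7%, 11.5% and 14.0% of the polysomal counts in the controls and 10.2%, 10.04% and 12.1% in the N6L libraries, which overlapped (exact permutation p = 0.2). Rps3 was at 3392, 3338 and 3375 CPM against 2797, 2634 and 3836 CPM (-0.12, FDR 0.787), and Rpl36 at 1038, 1025 and 1896 CPM against 739, 826 and 1548 CPM (-0.35, FDR 0.58). For both, N6L library 3 was the highest of its group. Rpl12 and Rplp0, the most counted members, were at -0.36 (FDR 0.407) and 0.00 (FDR 0.996).

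Of 14 subunits of eIF3, the factor that brings the small ribosomal subunit to the mRNA, 0 were called, and all 14 had log2 fold changes below 0 (median -0.24). Eif3a was at 173, 203 and 149.7 CPM in the controls and at 247, 124 and 57.8 CPM in the N6L libraries (-0.29, FDR 0.723), so that the N6L values spanned more than the whole range of the controls. Eif3c was at 619, 691 and 499 CPM against 582, 386 and 291 CPM (-0.52, FDR 0.283). Eif3h and Eif3f, the most counted subunits, were at -0.03 and -0.05. Of 39 other translation factors, 0 rose and 2 fell (5.13%, against 0.524% of all genes). Denr, a factor of ribosome recycling and reinitiation, fell from 235, 172 and 254 CPM to 123, 115 and 97.3 CPM (-0.98, FDR 0.0333), and Eif2b3, a subunit of the exchange factor of eIF2, from 53.6, 54.5 and 64.0 CPM to 36.2, 28.1 and 23.4 CPM (-0.97, FDR 0.0404). Of 23 cytosolic aminoacyl-tRNA synthetases, 0 were called (median -0.46), and in 11 of them every N6L library lay below the controls, against 11.6% of all genes. Sars was at -0.15 (FDR 0.727) and Nars at -0.59 (FDR 0.204).

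Of 60 ribosome biogenesis factors, 0 were called (median -0.35). Ncl, the nucleolin gene and the target of the drug, was at 858, 780.2 and 884 CPM in the controls and at 761, 464 and 226 CPM in the N6L libraries (-0.80, standard error 0.34, FDR 0.216). All N6L values lay below the controls, but they differed among themselves by more than 3-fold. Npm1, another nucleolar chaperone gene, was at 1471, 1144 and 1052 CPM against 1124, 897 and 426 CPM (-0.58, FDR 0.312). Fbl, the methyltransferase of ribosomal RNA, was at 112 ± 14.0 and 88.4 ± 13.5 CPM (-0.34, FDR 0.383). The share of counts on the list was 0.909%, 0.909% and 0.874% in the controls and 0.860%, 0.721% and 0.575% in the N6L libraries (exact permutation p = 0.1). Larp1, which binds mRNAs that begin with an oligopyrimidine tract, was at 167 ± 9.75 and 122 ± 36.3 CPM (-0.45, FDR 0.296). Of 35 genes of mTORC1 and its regulators, 0 passed (median 0.13), with Akt1 at 0.00 and Akt1s1 at 0.13.

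Nucleolar genes outside these lists were among the 12 largest falls, taken by the same rule as the rises. Tcof1, the treacle gene of ribosomal DNA transcription, fell from 199, 222 and 195 CPM to 132, 62.2 and 62.1 CPM (-1.26, FDR 0.04). Lyar, a nucleolar zinc-finger gene, fell from 123, 113 and 158 CPM to 74.3, 53.5 and 38.4 CPM (-1.24, FDR 0.0284). Llph fell from 35.1 ± 8.85 to 14.8 ± 0.975 CPM (-1.25, FDR 0.0235). The rest were of mixed function. Tnnt2, a troponin gene, fell from 38.6, 35.9 and 59.3 CPM to 15.1, 12.7 and 19.7 CPM (-1.49, FDR 0.0174), and Gsta1, a glutathione transferase gene with close paralogs, from 63.2 ± 23.8 to 24.1 ± 2.53 CPM (-1.39, FDR 0.0225). Haus1, of the augmin complex of the spindle, and Cenpu, of the inner kinetochore, fell by 1.26 and 1.18 on the log2 scale. Tmem179 fell from 23.4 ± 3.01 to 10.1 ± 2.36 CPM (-1.21, FDR 0.0248). Mir703, a microRNA gene that lies within Cfap299 on the opposite strand, fell from 24.9 ± 6.70 to 10.7 ± 2.22 CPM, but libraries of polyadenylated RNA do not measure mature microRNAs. No gene called lower was called under all 16 alternatives.

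Transcripts of the mitochondrial genome led the 12 largest falls. They are made and translated inside the organelle, and mitochondria had been removed by centrifugation before the gradient. Of 13 mitochondrially encoded protein genes, 7 passed the filter, and the other 6 were listed at 0 in every library. Of the 7, 1 was called lower, against 0.524% of all genes, and 0 higher, with a median log2 fold change of -1.61. mt-Nd2 (mitochondrial genome from 3914 to 4951) fell from 76.8, 30.8 and 139.7 CPM to 22.3, 25.3 and 13.8 CPM (-2.01, standard error 0.43, FDR 0.0327). mt-Rnr1, the small ribosomal RNA, fell from 46.3, 12.5 and 26.2 CPM to 8.98, 6.56 and 7.72 CPM (-1.87, FDR 0.0284). mt-Cytb was at 364, 149 and 387 CPM against 134, 109.8 and 47.1 CPM (-1.63, FDR 0.0512). The protein genes took 0.1001%, 0.0412% and 0.0984% of the counts in the controls and 0.0409%, 0.0355% and 0.0133% in the N6L libraries (exact permutation p = 0.1). Non-treated library 2 lay close to the N6L libraries, and how many mitochondria each lysate still held was not tested.

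Nuclear genes of the organelle gave few calls. Of 77 nuclear subunits of oxidative phosphorylation, 0 rose and 1 fell (1.30%, against 0.524% of all genes). The median was -0.25, but -0.04 without non-treated library 4 and -0.49 without N6L library 3. The gene that fell was Cycs, the cytochrome c gene, which fell from 124, 105 and 172 CPM to 69.9, 59.0 and 73.7 CPM (-0.99, FDR 0.0409). Of 76 mitochondrial ribosomal protein genes, 0 were called (median -0.32, or -0.15 without non-treated library 4), with Mrpl12 at -0.48 (FDR 0.404) and Mrpl30 at -0.56 (FDR 0.205). Of 32 proteasome subunits, 0 were called (median -0.36). In 15 of them every N6L library lay below the controls, against 11.6% of all genes. Psmb4 was at -0.16 and Psma7 at -0.25.

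The cell cycle lists lay below 0 with few members past the test. Of 49 genes of DNA replication and nucleotide synthesis, 0 rose and 1 fell (2.04%, against 0.524% of all genes). It was Gins1 of the replicative helicase, from 71.9, 52.8 and 81.9 CPM to 41.4, 32.4 and 32.3 CPM (-0.96, FDR 0.0442). The median of the list was -0.49, and in 24 of the 49 the N6L libraries all lay below the controls, against 11.6% of all genes. Its share of the counts was 0.713%, 0.655% and 0.701% in the controls and 0.628%, 0.499% and 0.448% in the N6L libraries (exact permutation p = 0.1). Of 60 mitotic spindle, kinetochore and condensin genes, 0 were called (median -0.40), with Cdk1 at -0.22 (FDR 0.569) and Cenpa at -0.24 (FDR 0.573). Outside this list, the spindle gene Haus1 (-1.26, FDR 0.0325) and the kinetochore gene Cenpu (-1.18, FDR 0.0284) were called lower. The mitotic median rested on single libraries. It was 0.00, -0.39 and -1.09 in N6L libraries 1, 2 and 3 against the mean control, and the fitted median was -0.71 without N6L library 1 and -0.18 without N6L library 3. Of 34 genes of the Fanconi and homologous recombination pathways, 0 were called (median -0.47, or -0.71 without N6L library 1). Mre11a, a nuclease subunit of double-strand break repair, was at -0.70 (FDR 0.146).

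Among the remaining lists, 63 chromatin modifiers gave 1 rise (1.59%, against 1.93% of all genes) and 0 falls. Their median was -0.07, with -0.31 without N6L library 1 and 0.13 without N6L library 3. Brd2, a bromodomain reader of acetylated histones, rose from 533, 658 and 483 CPM to 934, 979 and 1119 CPM (0.86, FDR 0.0461). Of 14 long noncoding RNAs, 1 rose and 1 fell (7.14% each, against 1.93% and 0.524% of all genes). Neat1, the scaffold of paraspeckles, rose from 20.4, 26.4 and 16.5 CPM to 93.2, 81.8 and 58.3 CPM (1.88, FDR 0.00548) and was called under all 16 alternatives. Snhg5, a host of small nucleolar RNAs, fell from 236, 218 and 217 CPM to 123, 113 and 72.9 CPM (-1.12, FDR 0.0248). Malat1, a nuclear RNA like Neat1, was at 33.8 ± 10.03 and 31.7 ± 17.2 CPM (-0.09, FDR 0.917). Of 308 tested genes named Zfp, 2 rose (0.649%, against 1.93% of all genes) and 0 fell (median 0.19). The 2 that rose were the mRNA decay factors Zfp36 and Zfp36l1, not DNA-binding zinc-finger repressors. The lists of 32 glycolysis and hypoxia genes (median 0.30), 40 lysosome and autophagy genes (0.28) and 53 phosphoinositide kinases and phosphatases (0.12) held 0 calls, with Pkm at 0.37, Gapdh at -0.02, Sqstm1 at 0.02, Gabarap at 0.36, Pip4k2c at 0.41 and Pik3r2 at -0.02. In 11, 14 and 6 of their members, in that order, every N6L library lay above every control, against 13.8% of all genes. In 0, 3 and 2 every N6L library lay below, against 11.6%.

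The 5 genes that took the most polysomal counts, per count and not per length, did not pass the test. Cdk4 was at 10535 ± 617 and 10818 ± 2365 CPM, and S100a6, a calcium-binding protein gene, at 10397 ± 4262 and 10138 ± 3588 CPM. The elongation factor genes Eef1a1 and Eef2 had log2 fold changes of -0.23 (FDR 0.615) and 0.15 (FDR 0.789), and the trefoil factor gene Tff1 of -0.06 (FDR 0.931). Of the markers of other cell types, Vim (2648 ± 149 and 2109.7 ± 297 CPM), Cela1 (45.5 ± 9.54 and 61.1 ± 20.3 CPM) and Cd14 (71.4 ± 5.70 and 91.5 ± 26.1 CPM) had an FDR of 0.394 or more. For Vim every N6L library (2349, 2203 and 1777 CPM) lay below every control (2734, 2734 and 2476 CPM). For the acinar factor gene Bhlha15 (0.955 ± 0.699 and 2.66 ± 1.12 CPM, log2 fold change 1.44, FDR 0.12) and the macrophage receptor gene Csf1r (0.949 ± 0.510 and 1.81 ± 0.152 CPM, 0.89, FDR 0.21), both at a few CPM at most, every N6L library lay above every control.

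The cytoplasmic libraries of the same lysates show how far the same genes changed before selection on the gradient. In the cytoplasm 2803 genes were higher (20.9% of 13426 tested) and 2863 lower (21.3%). Of the 258 genes called higher in the polysomes, 244 were also called higher in the cytoplasm (94.6% of the polysomal and 8.71% of the cytoplasmic list), and of the 70 called lower, 65 were called lower there (92.9% and 2.27%). No gene called in the polysomes was called in the opposite direction in the cytoplasm. A polysomal and a cytoplasmic library of the same number share a lysate, so these counts are not independent. Of the 4 technical replicates of N6L cytoplasmic library 2, 3 carry a description that names culture 1 beside a title that names culture 2, and they were kept by title. The immediate-early list had medians of 1.32 in the polysomes and 1.21 in the cytoplasm, where 22 of its members were higher, and the cholesterol and fatty acid list medians of 1.09 and 0.89, with 28 members higher.

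**Figure D3:**
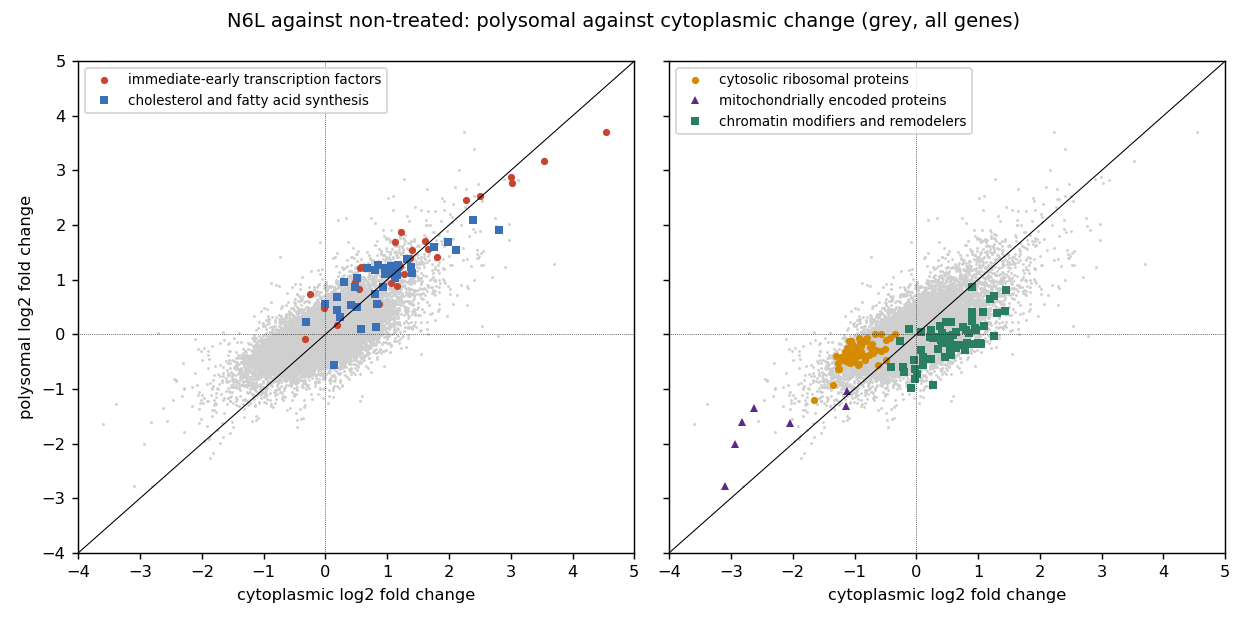
Polysomal against cytoplasmic log2 fold change (N6L against non-treated) of all genes tested in both (grey) and of members of 5 lists, with the line of equal change. Immediate-early and cholesterol genes lie along the line (medians 1.32 and 1.21, and 1.09 and 0.89). Ribosomal protein genes lie above it (-0.33 and -0.96) and chromatin modifiers below it (-0.07 and 0.54).

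Other lists had different medians in the fractions. For ribosomal proteins the median was -0.33 in the polysomes and -0.96 in the cytoplasm, where 80 of 81 were lower. For nuclear oxidative phosphorylation subunits it was -0.25 and -0.86 (66 of 76 lower in the cytoplasm), and for mitochondrial ribosomal proteins -0.32 and -0.75 (65 lower). Chromatin modifiers were at -0.07 and 0.54 (38 of 63 higher in the cytoplasm) and the mitotic list at -0.40 and 0.04. The cytoplasmic change followed transcript length over all genes. Its median went from -0.55 in the shortest to 0.41 in the longest quintile (Spearman's rho 0.503 over 13095 genes, which share libraries), against a rho of 0.103 in the polysomes. The members' median length was 1094 bases for ribosomal proteins, 1141 for oxidative phosphorylation and 7916 for chromatin modifiers, and the part of length in these medians was not tested. The difference between the fractions was tested gene by gene in 1 contrast over all 12 libraries. Of 13889 genes, 0 differed at an FDR under 0.05 by edgeR and 0 by DESeq2, the smallest FDR in edgeR was 0.555, and an unadjusted p under 0.05 was reached by 1074 and 1233 genes. With the lysate as a block in edgeR, 0 genes passed and 2996 had an unadjusted p under 0.05. The smallest FDR of that fit was 0.196. Without the filter on low counts 114 genes passed. So no tested gene named here was shown to change in the polysomes by an amount that differed from its change in the cytoplasm. For Arc the difference, polysome minus cytoplasm, was -0.16 on the log2 scale (FDR 0.853), for Insig1 -0.33 (FDR 0.701), for Rps3 0.64 (FDR 0.555), for Eif3a -0.98 (FDR 0.555) and for Ncl -0.69 (FDR 0.559). With the lysate as a block, the FDR was 0.824 for Arc, 0.259 for Insig1, 0.196 for Rps3, 0.239 for Eif3a and 0.248 for Ncl.

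The polysomal libraries also differed in the transcripts they favoured. Genes were split into quintiles by transcript length and by GC content. In the shortest quintile, up to 1666 bases, the median log2 fold change was -0.14, against 0.02, 0.05, 0.06 and 0.01 in the longer quintiles, and that quintile held 33 of the genes called lower and 35 of those called higher. By GC content the medians went from -0.07 in the lowest to 0.10 in the highest quintile. Single libraries moved far more than the group difference. In N6L library 3 the medians went from -0.43 in the lowest to 0.38 in the highest quintile of GC content and reached -0.36 in the longest transcripts, while in N6L library 1 the longest transcripts were at 0.22. In the controls, library 4 favoured short transcripts (0.27 in the shortest, -0.21 in the longest quintile). With offsets per library for length and GC content, 750 genes were higher and 742 lower, and 325 of the 328 calls remained.

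**Figure D4:**
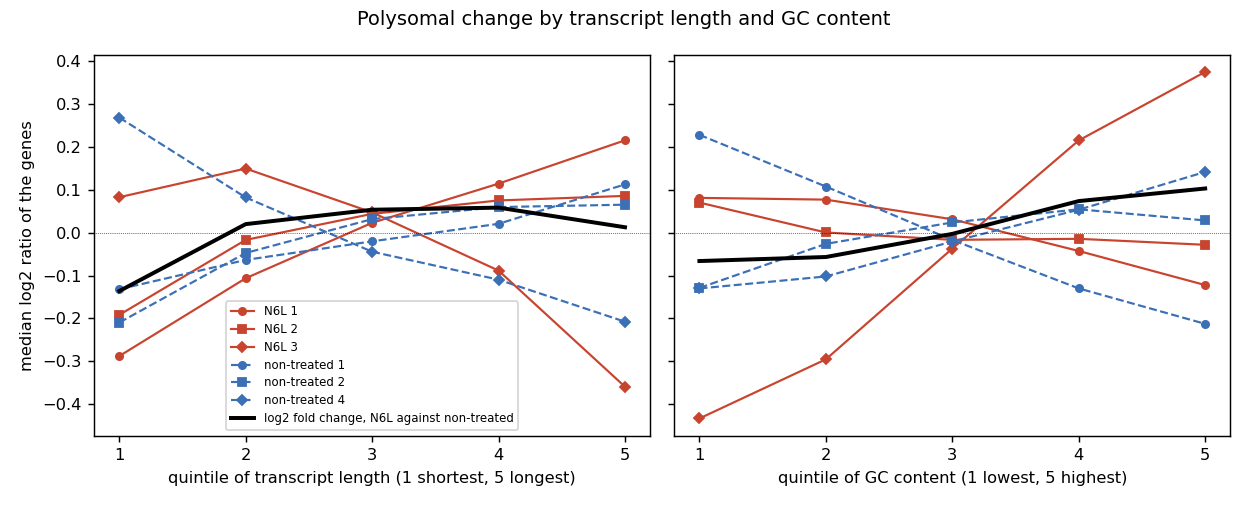
Median log2 ratio of genes in quintiles of transcript length (left) and GC content (right). Red lines are N6L libraries against the mean non-treated level, blue dashed lines each non-treated library against the mean of the other 2, and the black line the fitted log2 fold change. N6L library 3 runs from -0.43 to 0.38 across GC content, while the fitted change runs from -0.07 to 0.10.

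In all, 15 genes were called higher in the comparison above and under all 16 alternatives. They were Egr3, Arc, Egr2, Nr4a1, Btg2 and Jun of the immediate-early list, the phosphatase gene Dusp1, the decay factor Zfp36, the sterol regulator Insig1, the matricellular Ccn1, the noncoding Neat1, the histone genes Hist1h1c, Hist1h4i and Hist3h2a, and Synpo, an actin-binding protein gene at a log2 fold change of 1.76.

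**Figure D5:**
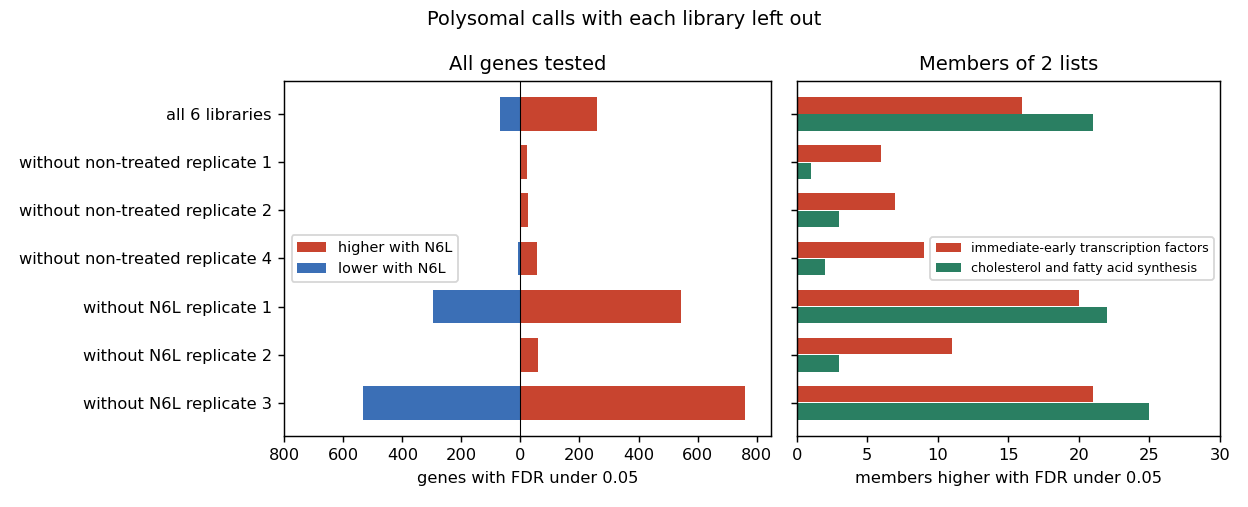
Number of genes with an FDR under 0.05 with all 6 polysome libraries and with each left out, for all genes (left, higher to the right and lower to the left of 0) and for members called higher in 2 lists (right). Calls of all genes range from 23 without non-treated library 1 to 1292 without N6L library 3, and those of the cholesterol and fatty acid list from 1 to 25.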

How the data were processed

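Polysomal and cytoplasmic RNA of the mPDAC cells was sequenced as polyadenylated, stranded libraries. Per the labels and the methods, the authors demultiplexed reads with bcl2fastq 2.18.0.12, aligned them to mm10 with STAR, counted them per gene with HTSeq 0.5.3 and deposited raw counts, without normalization, for 50600 genes. No source used here states the annotation release, the strand setting or the handling of reads with several matches, so near-identical and overlapping genes are uncertain. Symbols, coordinates, length and GC content came from GENCODE vM21 (GRCm38, 50376 genes matched), and promoters from RefSeq.

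The 4 technical replicates of a library were summed. The 6 polysome libraries were filtered (filterByExpr), scaled by TMM factors, and the quasi-likelihood model of edgeR 4.0.16 (glmQLFit and glmQLFTest, R 4.3.3) was applied without covariates, with Benjamini-Hochberg adjustment over all genes and a limit of 0.05. Standard errors are the log2 fold change over the root of F. Cytoplasm was fitted apart, and the difference of fractions as 1 contrast over all 12 libraries. Both libraries of a culture came from the same lysate. The correlation of their deviations from their groups was 0.364, 0.452 and 0.645 for the non-treated and 0.0368, 0.199 and 0.229 for the N6L cultures. Shares of counts were compared by exact two-sided permutation tests. The fits were also run on simulated independent counts, whose outcome is not given here. Those counts held no shared lysate and no trend with transcript length or GC content, so they do not bear on these features.

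Genes are named by a rule: the 12 largest rises and falls with a mean of at least 10 CPM, an FDR under 0.05 and no overlap; up to 4 called members of each of 38 lists, or the 2 most counted; genes the study is about; and the 5 most counted genes. Others (Egr1, Nr4a2, Jun, Fos, Junb, Fosl1, Jund, Myc, Hmgcs1, Sqle, Mvk, Scd1, Fasn, Acly, Acaca, Srebf1, Srebf2, Dusp6, Errfi1, Cxcl16, mt-Cytb, Malat1, Krt8, Krt19, Synpo and the histone and Id genes) were chosen after their values were seen. Some genes that the rule names are not reported here. The members and lists were chosen with earlier results of these data known. Alternatives were DESeq2 1.42.0, other scalings and filters, all 12 libraries, blocks, offsets for length and GC content, technical replicate a alone and each library left out.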

Additional observations from a re-analysis of the deposited data

How the results depend on the processing

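The polysomal comparison gave 328 calls, 258 higher and 70 lower. It gave 824 with DESeq2 (526 and 298), 1343 in the fit of all 12 libraries (835 and 508), 979 with every gene kept (662 and 317), 1492 with offsets for transcript length and GC content (750 and 742), and 285 with library size alone (254 and 31). Leaving out a library gave 23 to 1292 calls, 22 to 760 of them higher and 1 to 532 lower. The alternative counts with RLE size factors, at least 10 counts in every library and technical replicate a alone stayed within 1.5 times these numbers. In the cytoplasm, leaving out a library gave 3530 to 5520 calls against 5666. The difference of fractions gave 0 calls, 0 to 1 with a library left out and 114 without the filter. Of 1687 values of named genes under the alternatives, 1442 kept their side of the threshold, 207 were no longer called, 38 were newly called and 0 called genes changed sign. For called genes whose groups did not overlap, the kept sign on leaving out a library was nearly fixed beforehand. The list medians kept their sign under all alternatives except those of NRF2 targets, chromatin modifiers, mTORC1 regulators, YAP and SRF targets and endothelial markers, which lie near 0 or hold few genes. Leaving out a library moved most of the medians between -0.5 and 0.5 by over 1.5 times. The causes were not tested.

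With the culture number as a block the polysomal comparison gave 1871 calls (1102 and 769), and 2651 (1159 and 1492) with the offsets as well. Only numbers 1 and 2 occur in both treatments, and the correlation of deviations between their libraries was 0.33 and 0.00, so the numbers are not taken as pairs. Non-treated library 4 and N6L library 3 then carry no information on the treatment. The block gave 4710 calls in the cytoplasm and 0 for the difference of fractions.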

Other observations

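Several histone genes of the chromosomal clusters rose. Their main transcripts end without a poly(A) tail, so libraries of polyadenylated RNA count only the polyadenylated forms, and many have near-identical copies whose reads may be split. The group was chosen after its values were seen and carries no test. Of 65 protein-coding genes named Hist, 38 passed the filter, and 9 were higher and 0 lower in N6L polysomes, against 1.93% and 0.524% of all genes. The median log2 fold change was 0.52, and 12 of the 38 were below 0. Besides Hist1h1c, Hist1h4i rose from 7.87, 9.21 and 6.86 CPM to 29.3, 25.1 and 27.3 CPM (1.77, FDR 0.00466 from edgeR's quasi-likelihood test), and Hist3h2a from 5.50, 5.72 and 4.53 CPM to 17.9, 16.1 and 18.3 CPM (1.73, FDR 0.00545). In both, the N6L libraries lay close together and lay above every control. Clustered histone genes took 0.0245% of the polysomal counts in non-treated and 0.102% in N6L libraries on average, most of it from Hist1h1c. Without that gene the shares were 0.00765% and 0.0192%. H1f0, the replacement linker histone gene outside the clusters, rose from 768, 825 and 908 CPM to 1748, 2222 and 2675 CPM (1.41, FDR 0.00921). In the cytoplasm 13 of 27 tested clustered histone genes were higher and 1 was lower.

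The Id genes, whose proteins block basic helix-loop-helix factors, were also looked at after Id3 had been seen. Id2 rose from 63.1, 69.4 and 122 CPM to 181, 228 and 199.7 CPM (log2 fold change 1.26, FDR 0.0277). Id4 was at 0.318 ± 0.0854 and 0.904 ± 0.0674 CPM (1.51, FDR 0.0535). Id1 was at 109, 152 and 409 CPM against 258, 408 and 588 CPM, with overlap between the groups (0.90, FDR 0.265).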
